A study of Canis lupus familiaris with 18 samples.

Results

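Endothelial markers, the VEGF receptors and the angiopoietin receptors were followed across 18 libraries of canine high grade oligodendroglioma (HGO), an infiltrating glioma of dogs. The genes were chosen by symbol, as PECAM1, VWF, CDH5, CLDN5, KDR, FLT1, TEK, TIE1, ENG and ANGPT2. Of those 10 names, 9 were listed by symbol among the 29993 genes of the count file, and CLDN5 was not analysed here. All 9 passed the filter on low counts, with 17 counts in the lowest library and 4576 in the highest.

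The study asked whether HGO of French bulldogs differs in gene expression from HGO of 2 related breeds with a raised risk of the tumor. The groups were 11 French bulldogs and a comparison group of 7 dogs, made up of 4 boxers and 3 Boston terriers, numbered here as in the labels. Each library was bulk total RNA of formalin-fixed, paraffin-embedded prosencephalic tumor tissue, resected at surgery before any trial treatment, and no library came from normal brain. Whether other treatment was given before surgery is not stated in the paper. The breed was as recorded for these pet dogs, and genotypes and ages were not used here. The library names of French bulldogs 2 and 8 carry the same case number, so they may not be separate dogs. Their counts differed by more than counting noise (chi-square per degree of freedom 9.41, against 28.5 to 326 for the other 152 pairs). They were also the most alike of all pairs, with a correlation across genes of 0.981 on normalized log2 counts, against 0.520 to 0.946 for the others. The paper also gives both the same age, sex and tumor lobe. The counts alone do not show whether they came from 1 dog. They were kept apart in the test between breeds, so n = 11 counts libraries, and were summed in an alternative.

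Blood vessels are lined by endothelial cells, which hold together through junction proteins and respond to vascular endothelial growth factor (VEGF) through the receptor tyrosine kinases KDR and FLT1. A second receptor system, TEK with its partner TIE1, reads angiopoietins, of which ANGPT1 is known to keep vessels stable and ANGPT2 to loosen them. High grade gliomas are known for proliferating vessels, so these genes are used widely to describe tumor vasculature. In bulk tissue, fewer endothelial cells and less RNA per endothelial cell cannot be told apart.

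The libraries held 8212452 to 13169880 counts, and the most abundant gene, which has no symbol in the file, took 17.4% to 33.4% of them. Summed levels of 10 oligodendrocyte lineage genes, which mark the labelled tumor type, were 2281 to 8575 CPM (counts per 1000000 counts of the library, normalized by TMM) in 17 libraries. French bulldog 6 stood apart, with 63.3 CPM for that list, 2 of its genes at 0, and 8454 CPM for 14 macrophage and microglia genes, against 71.5 to 457 CPM in the other 17 libraries. Its summed astrocyte genes were 22.5 CPM (at least 518 CPM elsewhere) and its neuron genes 0.937 CPM (at least 63.5 CPM elsewhere). Endothelial genes outside the members summed to 314 CPM (at least 525 CPM elsewhere) and pericyte genes to 93.9 CPM (at least 122 CPM elsewhere). Reference genes summed to 5400 CPM there and to at most 1327 CPM elsewhere. The sequencing run is not given in the labels. The numbers that end the names of 3 comparison libraries (boxer 5 and Boston terriers 6 and 7) repeat numbers used among the French bulldogs, while those of the other 4 do not, and whether those 4 shared a run with the French bulldogs is not stated.

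No difference between breeds in any of the 9 endothelial genes passed the test. In edgeR's quasi-likelihood test with Benjamini-Hochberg adjustment, 0 of 9 passed an adjusted p of 0.05, and 0 of 9 had an unadjusted p under 0.05. Over all 16495 genes tested, 1 passed, or 0.00606%, and 1744, or 10.6%, had an unadjusted p under 0.05. DESeq2 called 0.258% of its genes and limma-voom 0.0121%, and both called 0 of these 9. The log2 fold changes of the members, French bulldog minus comparison group, were below 0 for 9 of 9 and ran from -0.50 to -0.01, with a median of -0.17 against 0.04 over all genes tested. Of all 16495 genes, 7632 were below 0. The 9 genes varied together across libraries, so their signs are not separate observations. Without French bulldog 6, 6 of the 9 were below 0 and 3 above, with the same rounded median of -0.17 against 0.05 over all genes (7309 of 16403 below 0). With 1 library left out at a time, the lowest value of each of the 9 genes came without French bulldog 3. In limma-voom the log2 fold changes ran from -0.82 to -0.13 and were larger in size than in edgeR for 9 of 9. All 9 of the 95% confidence intervals covered 0, the widest reaching from -1.52 to 0.53 for ANGPT2. On simulated counts for this comparison, the same test recovered 14% of genes changed 2-fold and 71.9% of genes changed 4-fold, so a 2-fold difference would often be missed at this size.

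PECAM1, VWF and CDH5 are the classic markers of the endothelial surface and its junctions. VWF encodes von Willebrand factor, which endothelial cells store and release to bind platelets. Its lowest, median and highest levels were 60.0, 113 and 447 CPM in the 11 French bulldogs. In the boxers VWF stood at 139, 179, 201 and 269.6 CPM (boxers 1, 3, 4 and 5). In the Boston terriers it stood at 154, 189.8 and 161 CPM (Boston terriers 2, 6 and 7). French bulldog values thus enclosed those of the comparison group, with French bulldogs 3 and 1 (447 and 306 CPM) above all 7 and 6 of 11 below all 7. For VWF the log2 fold change was -0.17 (SE 0.37, 95% confidence interval -0.95 to 0.61, adjusted p = 0.909, edgeR). It was -0.44 without French bulldog 3, -0.30 without French bulldog 1, -0.06 without French bulldog 6, -0.05 without boxer 5 and between these without any other library, and limma-voom gave -0.45.

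CDH5 encodes VE-cadherin, the adhesion molecule of endothelial junctions. It ranged from 6.35 CPM in French bulldog 6 to 48.0 CPM in French bulldog 3, with a French bulldog median of 12.0 CPM. The boxers held 16.6, 26.2, 13.4 and 17.0 CPM and the Boston terriers 14.3, 14.9 and 21.4 CPM. The comparison group was narrow, and French bulldogs lay on either side of it, 3 above and 6 below its range. The means were nearly equal at 17.6 ± 13.5 CPM (SD, n = 11) and 17.7 ± 4.57 CPM (SD, n = 7), and the log2 fold change was -0.01 (SE 0.39, adjusted p = 0.997, edgeR). It was -0.28 without French bulldog 3 and 0.11 without French bulldog 6 or boxer 3. Reads of CDH5 could not be told apart from those of an overlapping long noncoding RNA gene in the RefSeq annotation (assembly UU_Cfam_GSD_1.0), since the strand setting of the counting is not given in the sources used here.

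PECAM1 encodes CD31, an adhesion molecule of endothelial cells that platelets and some white cells also carry. Its lowest, median and highest levels were 15.2, 30.2 and 129.6 CPM in French bulldogs. The boxers held 35.8, 98.9, 41.4 and 58.6 CPM and the Boston terriers 38.8, 38.0 and 67.7 CPM. French bulldogs 3 and 6 (129.6 and 98.0 CPM) were at the top of their group, and 6 of 11 French bulldogs lay below every comparison library. Between the groups the log2 fold change was -0.16 (SE 0.41, adjusted p = 0.923, edgeR). It was -0.42 without French bulldog 3, -0.29 without French bulldog 6 and 0.05 without boxer 3, and limma-voom gave -0.41.

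KDR and FLT1 encode VEGF receptors 2 and 1, of which KDR carries most of the growth signal and FLT1 also acts as a decoy that binds ligand tightly. KDR had a low of 11.04, a median of 28.5 and a high of 113.9 CPM in French bulldogs. It was 42.2, 74.1, 34.0 and 49.5 CPM in the boxers and 37.7, 21.2 and 60.3 CPM in the Boston terriers. French bulldog 6 was the lowest of all 18 libraries and French bulldog 3 the highest, and 7 of 11 French bulldogs fell inside the comparison range. In the test, KDR had a log2 fold change of -0.02 (SE 0.39, 95% confidence interval -0.85 to 0.80, adjusted p = 0.992, edgeR). It was -0.26 without French bulldog 3, 0.11 without French bulldog 6 and 0.14 without boxer 3. KDR also overlaps a long noncoding RNA gene in RefSeq.

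FLT1 was the steadiest of the 9 genes, with a 4.33-fold ratio between its highest and lowest libraries. French bulldogs ran from 31.7 through a median of 64.1 to 137 CPM. The boxers held 88.2, 79.9, 79.6 and 70.4 CPM and the Boston terriers 51.0, 56.3 and 68.4 CPM, so each boxer lay above each Boston terrier. Such a separation of these breeds was present for 1 of 9 members and for 7.25% of all genes in the fit of 3 breeds. Between French bulldogs and the comparison group the log2 fold change of FLT1 was -0.03 (SE 0.25, 95% confidence interval -0.55 to 0.50, adjusted p = 0.984, edgeR), the tightest interval of the members. FLT1 overlaps a pseudogene in RefSeq, and reads of the pair could not be told apart.

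TEK, the angiopoietin receptor also called TIE2, had a low of 11.5, a median of 20.2 and a high of 62.3 CPM in French bulldogs. The boxers stood at 24.9, 25.1, 36.0 and 48.6 CPM and the Boston terriers at 45.7, 17.0 and 23.7 CPM. French bulldogs 2, 4, 6, 8 and 9 lay below every comparison library and French bulldog 3 above them all. TEK had a log2 fold change of -0.25 (SE 0.34, adjusted p = 0.825, edgeR). It was -0.46 without French bulldog 3, -0.17 without French bulldog 6, -0.14 without Boston terrier 2 and -0.12 without boxer 5.

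TIE1, the partner receptor without a well established ligand of its own, spread 23.1-fold between libraries. It was 1.77 CPM in French bulldog 6 and 40.9 CPM in French bulldog 3, around a French bulldog median of 9.56 CPM. The boxers held 11.2, 19.7, 20.5 and 27.0 CPM and the Boston terriers 13.7, 6.86 and 12.7 CPM. Boxers were mostly high and Boston terriers low within the comparison group, with overlap at boxer 1. For TIE1, French bulldog minus comparison group, the log2 fold change was -0.32 (SE 0.46, adjusted p = 0.844, edgeR). It was -0.67 without French bulldog 3, -0.17 without French bulldog 6 and -0.14 without boxer 5, and limma-voom gave -0.57.

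ANGPT2, the ligand made by activated endothelium, was the most variable member, with a 39.4-fold ratio between its highest and lowest libraries. French bulldogs ran from 2.92 CPM (28 counts, French bulldog 6) through a median of 32.2 to 89.2 CPM. The boxers held 40.1, 114.9, 26.7 and 29.7 CPM and the Boston terriers 51.6, 55.0 and 72.0 CPM. Boxer 3 was the highest of all 18 libraries, the 3 Boston terriers sat close together, and French bulldogs 2, 6, 8 and 9 lay below the comparison range. Its log2 fold change was the largest of the 9 in size, at -0.50 (SE 0.49, 95% confidence interval -1.52 to 0.53, adjusted p = 0.738, edgeR). Without boxer 3 it was -0.22, over all single libraries left out it ran from -0.69 to -0.22, and limma-voom gave -0.82. ANGPT2 overlaps the protein-coding gene MCPH1 in RefSeq, for which the log2 fold change was 0.01 (SE 0.25, edgeR).

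ENG encodes endoglin, a coreceptor for ligands of the TGF-beta family on endothelium. French bulldogs had a low of 9.04, a median of 18.8 and a high of 61.4 CPM. The boxers stood at 20.5, 40.3, 23.8 and 47.8 CPM and the Boston terriers at 20.2, 20.5 and 33.2 CPM. Of 11 French bulldogs 6 lay below every comparison library, and French bulldog 3 again stood above them all. ENG had a log2 fold change of -0.25 (SE 0.38, adjusted p = 0.849, edgeR). It was -0.48 without French bulldog 3, -0.16 without French bulldog 4 or boxer 3, -0.17 without French bulldog 5 and -0.10 without boxer 5, and limma-voom gave -0.44. ENG overlaps FPGS in RefSeq, whose log2 fold change was -0.42 (SE 0.22, adjusted p = 0.4996, edgeR).

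**Figure D1:**
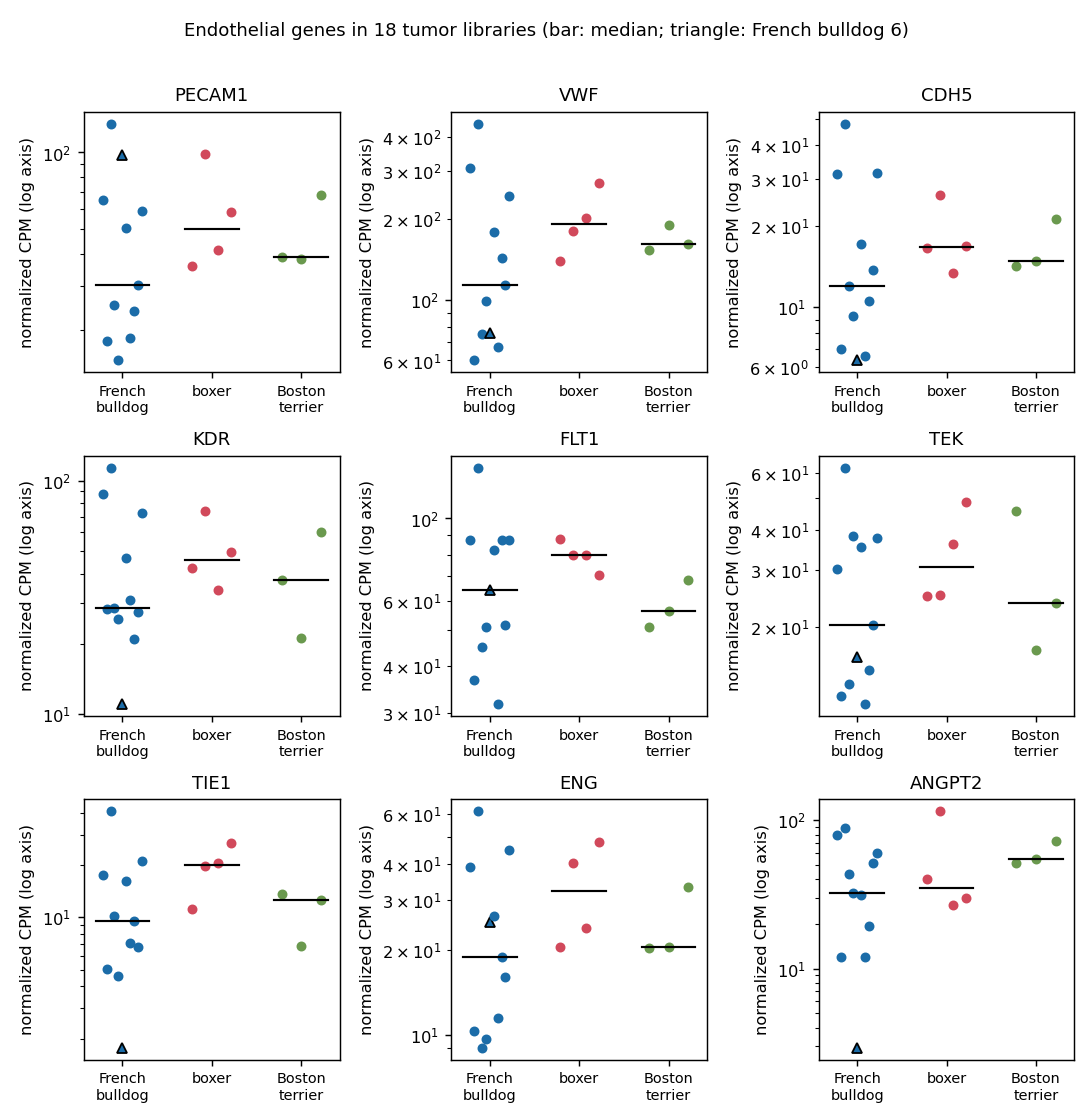
Normalized CPM of the 9 endothelial genes (y axis, log scale) in 11 French bulldogs, 4 boxers and 3 Boston terriers (x axis). Each point is 1 library, the bar is the median of the breed and the outlined triangle is French bulldog 6. French bulldog values enclose the comparison range in most panels, and the triangle is the lowest point for CDH5, KDR, TIE1 and ANGPT2 but near the top for PECAM1.

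The same libraries were high or low for most of the 9 genes. Each library was compared with the mean of 18 libraries for each gene on the log2 CPM scale. French bulldog 3 was above the mean for 9 of 9 genes and among the 4 highest libraries for all 9, by 1.48 on average. French bulldogs 1 and 11 were also above the mean for 9 of 9 genes, by 0.79 and 0.75 on average, and boxer 3 for 8 of 9, by 0.76. Among the low libraries, French bulldogs 2 and 8 were below the mean for all 9 genes, by -1.08 and -1.02 on average. These last libraries are those that share a case number. The most abundant gene of the file took 29.9% of counts in French bulldog 3 and 20.6% and 17.4% in French bulldogs 2 and 8. Across libraries its share gave no correlation with a member that passed adjustment (0 of 9, largest r = 0.51 for PECAM1, adjusted p = 0.361, permutation test, 17 units).

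French bulldog 6 was below the mean for 7 of 9 genes and above it for 2, by -1.04 on average, and was among the 4 lowest libraries for 5. Its deviations ran from -3.50 for ANGPT2, -2.54 for TIE1 and -1.79 for KDR to 1.204 for PECAM1, and ENG and FLT1 were close to the mean (0.13 and -0.03). PECAM1 is also carried by white cells, and the summed macrophage and microglia list was highest in this library. Whether those cells contributed to its PECAM1 level was not tested. French bulldog 5 combined 38.3 CPM of TEK, among the 4 highest libraries, with 4.57 CPM of TIE1, and French bulldog 9 combined 87.3 CPM of FLT1 with 21.0 CPM of KDR.

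**Figure D2:**
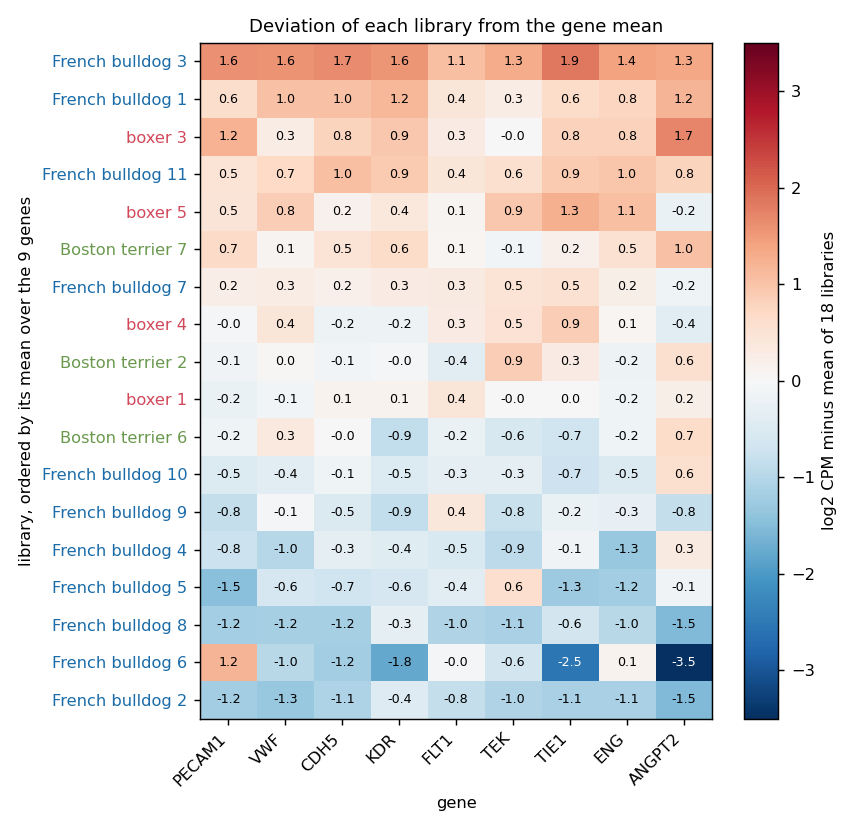
Deviation of each of 18 libraries (y axis, ordered from the highest mean to the lowest) from the gene mean for each of the 9 genes (x axis), in log2 CPM, with the value printed in each cell and red above, blue below the mean. French bulldog 3 is red across the top row, French bulldogs 2 and 8 are blue throughout, and French bulldog 6 runs from 1.2 for PECAM1 to -3.5 for ANGPT2.

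Levels were more spread among French bulldogs than in the comparison group for 9 of 9 genes. The SD of log2 CPM was 0.96 against 0.31 for VWF, 0.99 against 0.34 for CDH5 and 1.44 against 0.73 for ANGPT2. This was also the case for most genes, with a larger SD in French bulldogs for 81.5% of all genes tested and 71.5% without French bulldog 6. In exact two-sided permutation tests of the difference in SD, added after seeing the data, the unadjusted p was 0.00971 for VWF and 0.0209 for CDH5. No member passed adjustment over the 9 tests (smallest adjusted p = 0.0874). The biological coefficient of variation ran from 0.38 for FLT1 to 0.70 for ANGPT2, around a median over all genes tested of 0.45, with FLT1 alone below that median.

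The comparison group joins 2 breeds, so the 3 breeds were also compared with each other in 1 fit of 17934 genes. No member was called in any contrast. The share of all genes called was 0% for French bulldog against boxer, 0.00558% for French bulldog against Boston terrier and 0% for boxer against Boston terrier. Against boxers, the log2 fold changes of 9 of 9 members were below 0, from -0.61 (TIE1, SE 0.54) to -0.06 (CDH5, SE 0.48). TIE1 ran from -0.97 to -0.42 in this contrast with 1 library left out. Against Boston terriers, 6 were above 0 and 3 below, from -0.60 (ANGPT2, SE 0.66) to 0.24 (FLT1, SE 0.34). With 1 library left out, ANGPT2 ran from -0.79 to -0.43 and FLT1 from 0.09 to 0.37 against Boston terriers. The French bulldog libraries are shared by these contrasts.

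Between boxers and Boston terriers, 8 of 9 members had a higher mean in boxers. The largest difference was 0.82 for TIE1 (SE 0.75, 95% confidence interval -0.76 to 2.39, adjusted p = 1, edgeR), and FLT1, whose groups did not overlap, differed by 0.44 (SE 0.39, interval -0.39 to 1.27, adjusted p = 1, edgeR). In medians, 7 of 9 members were ordered boxer, then Boston terrier, then French bulldog, an order held by 19.4% of all genes in the fit. FLT1 had its lowest median in Boston terriers and ANGPT2 its highest. No pair of neighbours in these orders passed edgeR's test. With 4 boxers and 3 Boston terriers, 28.5% of genes changed 4-fold were recovered on simulated counts, so only large differences could have been seen. Between the 2 numbering series of the comparison group, 0 of 9 members and 0% of all genes were called. One series held boxers 1, 3 and 4 with Boston terrier 2, and the other boxer 5 with Boston terriers 6 and 7. Series and breed thus cannot be fully told apart here, and with 4 libraries against 3 a series effect could be missed. The largest member difference was 0.38 for ENG (SE 0.35), the series of boxer 5 and Boston terriers 6 and 7 minus the other.

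**Figure D3:**
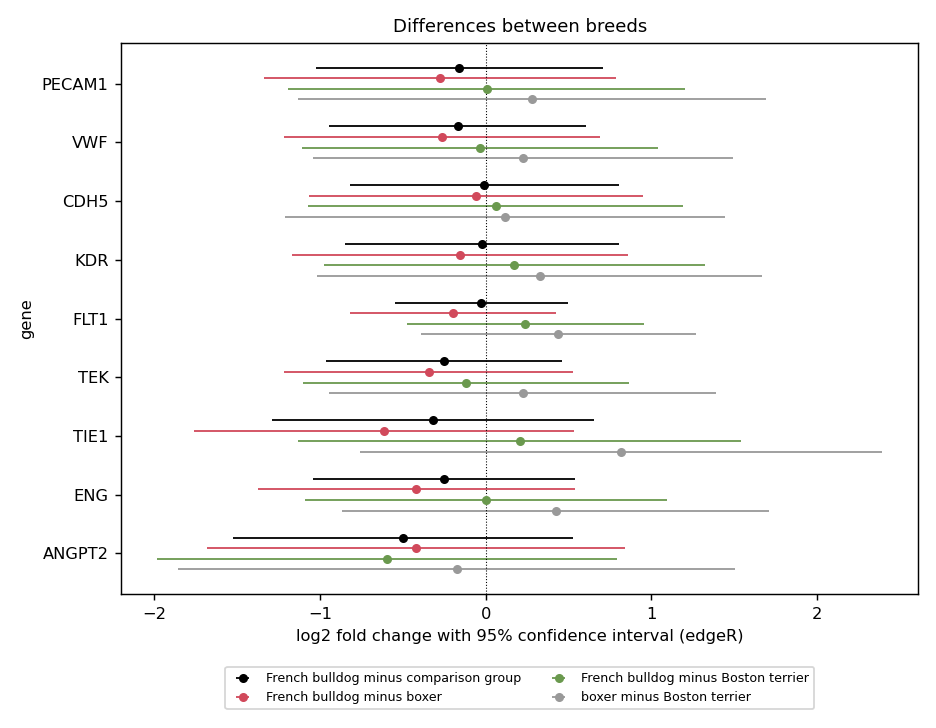
Log2 fold change (x axis) of each of the 9 genes (y axis) with its 95% confidence interval from edgeR, for French bulldog minus comparison group and for the 3 contrasts between breeds. Every interval covers 0, and the intervals are narrowest for FLT1 and widest for TIE1 and ANGPT2.

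Ratios of paired members were formed within each library, where depth and normalization cancel. A ratio also depends on the lengths of both transcripts, so only differences between libraries were read. French bulldogs had a log2 ratio of KDR to FLT1 of -0.81 ± 0.81 (SD, n = 11), against -0.70 ± 0.52 (SD, n = 7) for boxers and Boston terriers. The difference of -0.11 gave p = 0.767 (exact permutation test over all splits, two-sided). French bulldogs 6 and 9 had the lowest ratios, at -2.52 and -2.05, while all others of both groups lay between -1.40 and -0.01.

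The log2 ratio of TIE1 to TEK was -1.26 ± 0.94 (SD, n = 11) against -1.01 ± 0.43 (SD, n = 7), with p = 0.524 (exact permutation test). French bulldogs 6 and 5 stood apart at -3.05 and -3.00. The ratio of ANGPT2 to TEK was 0.29 ± 1.11 (SD, n = 11) against 0.74 ± 1.12 (SD, n = 7), with p = 0.427 (exact permutation test). For ANGPT2 to ANGPT1, the antagonist against the agonist of TEK, it was 2.31 ± 1.06 (SD, n = 11) against 3.11 ± 0.79 (SD, n = 7). The difference of -0.80 gave p = 0.104 before and 0.417 after adjustment over 4 ratios (exact permutation test). Boston terriers 6 and 7 (4.24 and 3.89) had the highest values of this ratio, Boston terrier 2 stood at 3.17, and French bulldogs covered 0.60 to 3.72. Without French bulldog 6 the differences of the 4 ratios, French bulldog minus comparison group, were 0.065 for KDR to FLT1, -0.07 for TIE1 to TEK, -0.18 for ANGPT2 to TEK and -0.72 for ANGPT2 to ANGPT1, and 0 of 4 passed (smallest unadjusted p = 0.152, exact permutation test).

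**Figure D4:**
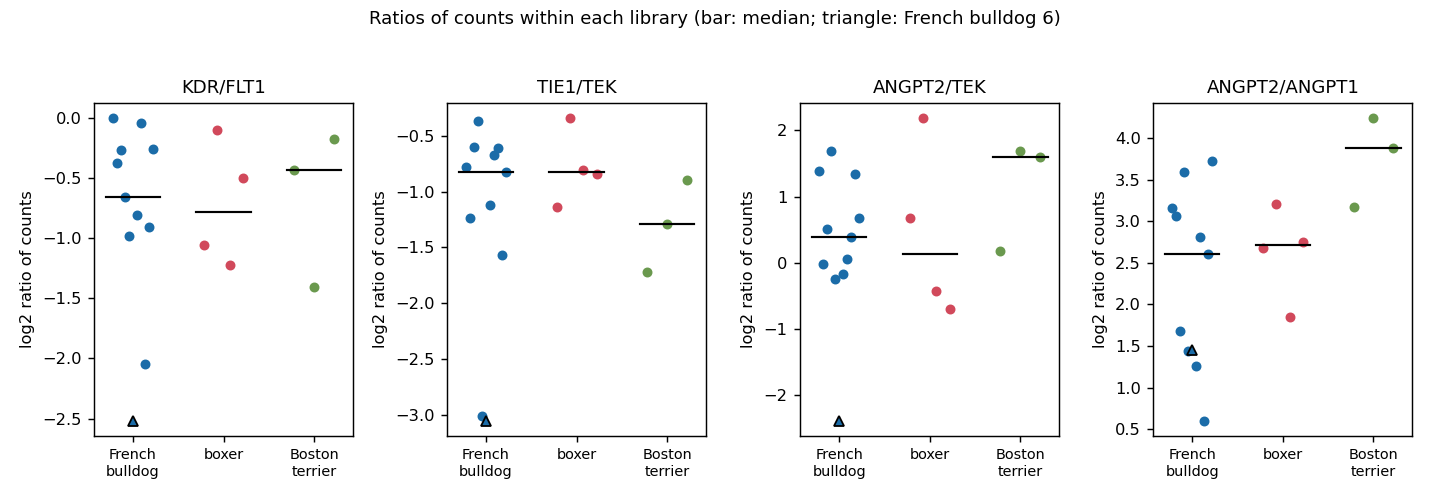
Log2 ratios of counts within each library (y axes) for KDR/FLT1, TIE1/TEK, ANGPT2/TEK and ANGPT2/ANGPT1 by breed (x axis). Points are libraries, bars are breed medians and the triangle is French bulldog 6, which is the lowest point in the first 3 panels.

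The 9 genes varied together across libraries. With French bulldogs 2 and 8 summed to 1 unit, 17 units and 36 pairs of genes were available. Pearson's r of log2 CPM was above 0 for 36 of 36 pairs, from 0.20 to 0.91 with a median of 0.66. After adjustment over the pairs, 30 passed by Pearson's r and 29 by Spearman's rho (permutation tests). The closest pair was CDH5 with KDR (r = 0.91, rho = 0.90, permutation p = 1e-05 for both, the smallest that 100000 permutations can give), and r was 0.86 without the 2 libraries farthest from the median of CDH5. PECAM1 with ENG followed at r = 0.88 (rho = 0.89, permutation p = 1e-05). The VEGF receptors KDR and FLT1 were less close, at r = 0.58 (rho = 0.58, permutation p = 0.0149 and 0.0173), and TEK with TIE1 stood at r = 0.66 (rho = 0.69, permutation p = 0.00378 and 0.00280).

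These relations depended on which libraries were read. Leaving out the 2 units farthest from the median, which narrows the range and leaves 15 units, gave 16 of 36 pairs past adjustment, with r above 0 for all 36 and a median r of 0.54. Within French bulldogs (10 units) 21 of 36 pairs passed and r was above 0 for all 36, and without French bulldog 6 (9 units) 31 passed with a median r of 0.86. Within the comparison group (7 libraries) 0 of 36 passed, 26 were above 0 and r ran from -0.51 to 0.91. Even the highest of these, PECAM1 with CDH5, had an adjusted p of 0.179 (exact permutation test). CDH5 with KDR held an r of 0.94 within French bulldogs and 0.83 within the comparison group, whereas VWF with CDH5 had 0.95 and -0.09.

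Several correlations of PECAM1 and ANGPT2 moved when French bulldog 6 was left out. PECAM1 with ANGPT2 had the lowest r of all pairs (0.20), which was 0.74 without that library. PECAM1 with TIE1 went from 0.41 to 0.86 and PECAM1 with CDH5 from 0.63 to 0.92. ANGPT2 with TIE1 moved the other way, from 0.70 to 0.43. Without this library 33 of 36 pairs passed, and TEK with ANGPT2 was the lowest at 0.36.

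**Figure D5:**
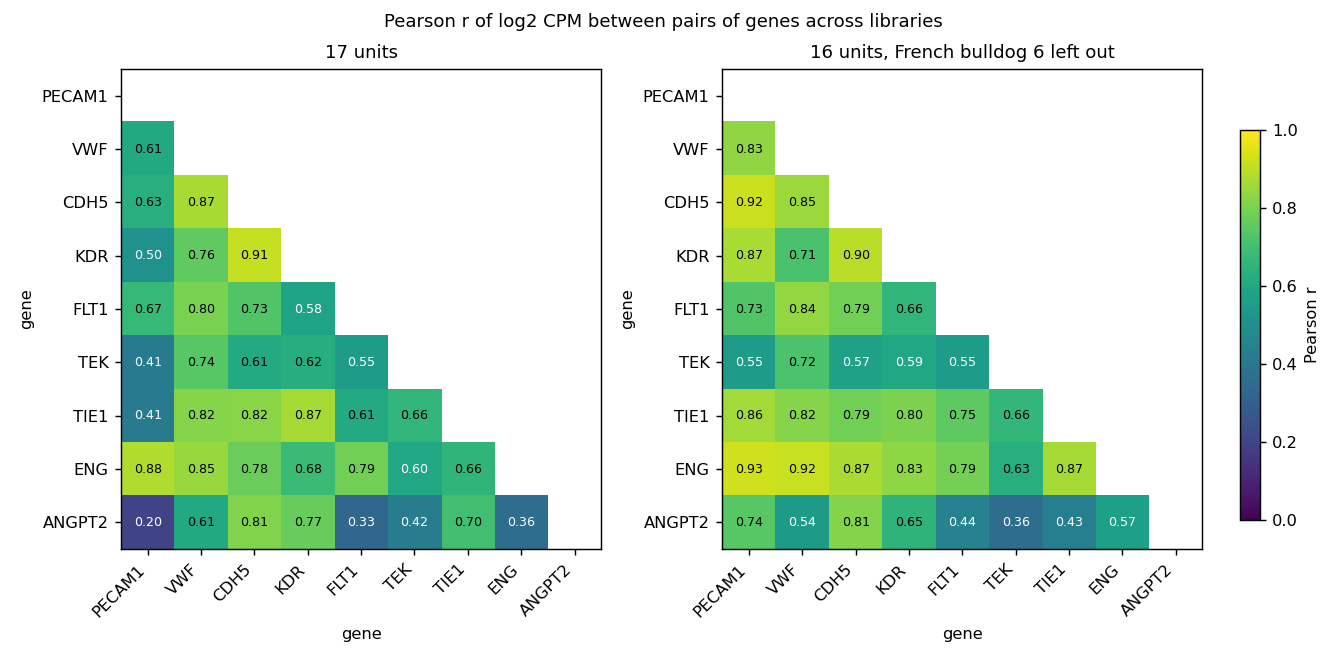
Pearson's r of log2 CPM for each of 36 pairs of the 9 genes (both axes), over 17 units (left) and over 16 units without French bulldog 6 (right), with r printed in each cell. The left panel is darkest for PECAM1 and ANGPT2 (0.20), and that cell is 0.74 in the right panel.

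Genes outside the list were ranked by their mean r with the 9 members over the 17 units, as a description with no test. Among 11575 genes with a symbol the median was 0.02 and the 95th percentile 0.43. Among the 10 closest were NID1 (0.81), ITGA1 (0.79), RBMS3 (0.78), TMEM204, APOL5, JAG1, EPHA2, IGFBP7 and SHE (0.76 to 0.77). NID1 encodes a basement membrane linker, ITGA1 a subunit of a collagen-binding integrin, JAG1 a Notch ligand and EPHA2 an ephrin receptor. NID1 stayed first without French bulldog 6 (0.84), where PLXND1, PALD1 and GGTA1 took the next places.

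By list, the median of this mean r was 0.68 over 18 other endothelial genes, 0.60 over 14 tip cell and vessel growth genes and 0.60 over 11 pericyte and smooth muscle genes. It was 0.49 over 14 blood-brain barrier genes, 0.27 over 10 oligodendrocyte lineage genes, 0.12 over 8 neuron genes and -0.09 over 6 reference genes. For 7 fibroblast genes it was 0.22 and for 6 astrocyte genes 0.34. For 14 macrophage and microglia genes it was 0.00 with French bulldog 6 and 0.51 without it. Without that library it was also 0.50 for fibroblast, 0.17 for astrocyte, -0.03 for oligodendrocyte lineage, -0.11 for neuron and -0.07 for reference genes. Other endothelial genes then had 0.72, tip cell genes 0.64, pericyte genes 0.60 and barrier genes 0.46. With and without that library, the median was 0.51 and 0.46 for angiopoietin-TEK partners and 0.41 and 0.35 for platelet genes. It was 0.29 and 0.54 for VEGF ligands and coreceptors, 0.25 and 0.06 for ENG signaling partners, and 0.02 and 0.32 for lymphatic genes. All of these values share the same libraries.

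No ligand of KDR or FLT1 passed edgeR's test between the groups. Of 8 VEGF ligands and coreceptors 7 were tested, 0 passed, 2 log2 fold changes were above 0 and 5 below, and the median was -0.18. VEGFA, the main growth factor of vessels and a ligand of both receptors, ranged from 31.3 through a median of 66.6 to 314 CPM in French bulldogs. The boxers held 114.5, 253, 58.1 and 154 CPM and the Boston terriers 43.3, 255 and 409 CPM. All French bulldogs but 2 lay inside the comparison range, those 2 lay below it, and French bulldogs 7 and 11 were the highest of their group. VEGFA had a log2 fold change of -0.88 (SE 0.49, adjusted p = 0.520, edgeR), and -0.55 (SE 0.49) without Boston terrier 7.

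VEGFC, a ligand of the receptor FLT4, had a log2 fold change of 0.85 (SE 0.45, adjusted p = 0.506, edgeR), with a median of 3.23 CPM in French bulldogs and 2.91 CPM in the comparison group. FLT4 itself had -0.45 (SE 0.52) and PGF, a ligand of FLT1, -0.34 (SE 0.40). VEGFB had -0.02 (SE 0.19), NRP2 -0.18 (SE 0.48) and NRP1, a coreceptor, 0.66 (SE 0.50). None of these 5 passed (smallest adjusted p = 0.641, edgeR). NRP1 was 470 CPM in French bulldog 6 and at most 127 CPM elsewhere, and FLT4 was 1.25 CPM there and at least 8.59 CPM elsewhere. Without that library the log2 fold change was 0.05 (SE 0.31) for NRP1, -0.29 (SE 0.44) for FLT4, -0.49 (SE 0.42) for NRP2 and -0.08 (SE 0.18) for VEGFB. NRP2 was -0.06 without French bulldog 2 or 8, and VEGFB ran from -0.09 to 0.07 with 1 library left out. FLT4 was also -0.84 without French bulldog 3 and -0.21 without boxer 5, and PGF was -0.61 without French bulldog 3 and -0.12 without boxer 3. VEGFD was too low to be tested, at 0 counts in most libraries and 4.79 CPM in French bulldog 6.

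Pearson's r of the members with VEGFA was above 0 for 9 of 9, and whether such correlations passed adjustment depended on the measure and the units. Over 17 units, Pearson's r ran from 0.04 for TEK to 0.55 for ENG, and 0 of 9 passed by Pearson's r (smallest adjusted p = 0.171, permutation test) or by Spearman's rho (smallest adjusted p = 0.0614, for CDH5 and ENG, permutation test). By Spearman's rho 5 of 9 passed with French bulldogs 2 and 8 apart (18 libraries) and 3 of 9 with CPM without TMM, and 0 by Pearson's r in both. For KDR, r was 0.37 (rho = 0.38, permutation p = 0.140 and 0.133) and for FLT1 0.37 (rho = 0.49, permutation p = 0.143 and 0.0510). Without the 2 units farthest from the median of VEGFA, r was 0.32 for KDR and 0.40 for FLT1. French bulldog 3, the highest library for KDR, had 66.6 CPM of VEGFA, and Boston terrier 7, the highest for VEGFA, had 60.3 CPM of KDR.

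On the angiopoietin side, ANGPT1 had a log2 fold change of 0.48 (SE 0.56), ANGPT4 -0.44 (SE 0.63) and PTPRB, the endothelial phosphatase that acts on TEK, -0.42 (SE 0.36). None of these 3 passed (smallest adjusted p = 0.696, edgeR), and PTPRB was -0.27 (SE 0.31) without French bulldog 6 and -0.65 (SE 0.33) without French bulldog 3. ANGPT1 was 0.11 (SE 0.52) without French bulldog 3 and 0.74 (SE 0.60) without boxer 3, and ANGPT4 was close to 0 without boxer 1. Of 12 signaling partners of ENG 11 were tested and 0 passed, with 4 log2 fold changes above 0, 7 below and a median of -0.07. The smallest unadjusted p values were those of SMAD7, an inhibitor of TGF-beta signaling, and TGFBR1, a TGF-beta receptor. SMAD7 had a log2 fold change of -0.79 (SE 0.26, adjusted p = 0.433) and TGFBR1 one of 0.56 (SE 0.23, adjusted p = 0.433, edgeR).

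The other vascular lists gave no call either, and their signs are read beside all 16495 genes tested, of which 7632 were below 0. Of 18 other endothelial genes tested, 4 log2 fold changes were above 0 and 14 below, with a median of -0.34. Without French bulldog 6 there were 6 above and 12 below, with a median of -0.20. EPAS1, a hypoxia-inducible transcription factor, had the smallest p (-0.76, SE 0.34, adjusted p = 0.452, edgeR), followed by ROBO4 (-0.58, SE 0.40). Of 14 blood-brain barrier genes, 2 were above 0 and 12 below, with a median of -0.40 (3 above, 11 below and -0.28 without French bulldog 6). They were led by the amino acid transporter SLC7A5 (-0.73, SE 0.31, adjusted p = 0.441) and the lipid transporter MFSD2A (-0.78, SE 0.38, adjusted p = 0.474, edgeR). French bulldog 6 was at 262 CPM for the summed barrier list, against 460 to 864 CPM in the other 17 libraries.

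Tip cell and vessel growth genes had 9 log2 fold changes above 0 and 5 below (median 0.20), with CXCR4 at 0.70 (SE 0.49) and ESM1 at 1.03 (SE 0.79). ESM1 was at 0.03 (SE 0.59) without French bulldog 3, and CXCR4 at 0.49 without French bulldog 6. Pericyte and smooth muscle genes had 0 above and 11 below (median -0.29), with the contractile protein gene CNN1 at -0.79 (SE 0.48) and the pericyte receptor gene PDGFRB at -0.61 (SE 0.38). CNN1 was at -0.43 (SE 0.49) without boxer 4. None of these 25 passed (smallest adjusted p = 0.560, edgeR).

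Markers of other cells that carry some of the members were read beside them. Platelets hold VWF and PECAM1, and of 9 platelet genes 3 were tested, all with log2 fold changes below 0 (median -1.55) and unadjusted p under 0.05, against 10.6% of all genes, with a smallest adjusted p of 0.433 (edgeR). By breed, as a description with no test, PPBP, a platelet chemokine, had means of 1.75 CPM in French bulldogs, 2.00 CPM in boxers and 13.97 CPM in Boston terriers, and ITGA2B, a platelet integrin subunit, had 1.52, 2.39 and 7.24 CPM, so the Boston terriers carried the higher means of the comparison group. The summed level of the 6 platelet genes listed in the file was 5.24 to 36.8 CPM in French bulldogs and 13.3 to 85.5 CPM in the comparison group. Of 6 red cell genes only 3 were listed by symbol, and all 3 were too low to be tested. Their sums, which cover those 3 genes alone, were at most 1.29 CPM in French bulldogs and 28.8 CPM in the comparison group. The medians went the other way, at 0.521 CPM in French bulldogs and 0.0941 CPM in the comparison group. The share of blood in VWF and PECAM1 was not tested. Lymphatic genes (4 tested) had 3 above 0 and 1 below, with sums of 46.4 to 235 CPM in French bulldogs other than French bulldog 6 (367 CPM) and 52.4 to 104 CPM in the comparison group. Of these, FLT4 had a mean r with the members of 0.72, while PROX1, LYVE1 and PDPN had 0.02, -0.10 and 0.03. Without French bulldog 6 the values were 0.83 for FLT4, -0.24 for PROX1, 0.39 for LYVE1 and 0.25 for PDPN.

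The macrophage and microglia list had 12 of 14 log2 fold changes above 0 (median 1.82), and 7 had an unadjusted p under 0.05, against 10.6% of all genes, but 0 passed (smallest adjusted p = 0.433, edgeR). Without French bulldog 6 the list had 8 above 0 and 6 below (median 0.22), 0 with an unadjusted p under 0.05 (10.8% of all genes) and a smallest adjusted p of 0.461 (edgeR). Of 10 oligodendrocyte lineage genes 5 were above 0 and 5 below (median 0.08), of 6 astrocyte genes 3 and 3 (median 0.05), and of 8 neuron genes 1 and 7 (median -0.07). Fibroblast genes had 7 of 7 above 0 (median 0.67) and reference genes 5 of 6 (median 0.40), and 0 passed in any of these 5 lists. Without that library the medians were 0.24 for oligodendrocyte lineage, 0.24 for astrocyte, 0.10 for neuron (6 above 0 and 2 below), 0.43 for fibroblast and 0.13 for reference genes, the platelet list had 2 of 3 with an unadjusted p under 0.05 (median -1.41), and 0 genes of these lists passed. Without French bulldog 6 and with French bulldogs 2 and 8 summed, an alternative chosen after seeing the data, 0 of 9 endothelial genes passed and the log2 fold change was 0.01 for VWF, 0.18 for CDH5, 0.15 for KDR and -0.26 for ANGPT2.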

How the data were processed

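Gene counts of 18 tumor libraries were analysed as deposited by the authors: whole-number counts per gene, not normalized, from paired reads trimmed with Trimmomatic 0.33, aligned with HISAT2 2.1.0 to the canFam6 dog genome and counted with featureCounts (the submitters' processing notes and the study's methods). The kit was stranded and removed ribosomal RNA; the strand setting of the counting is not given in the sources used here. Genes and lists were chosen with earlier results of these data known. All genes were fitted with edgeR 4.0.16 (R 4.3.3): TMM, filterByExpr, robust quasi-likelihood F test, Benjamini-Hochberg adjustment over all genes, two-sided, threshold 0.05. CPM are counts per 1000000 of the TMM-adjusted library size, and log2 CPM carry a prior count of 2. The SE was derived from the log2 fold change and its F statistic. Tests of spread and of the most abundant gene's share, lists without French bulldog 6, and named partner genes without each library, were added after seeing the data. Alternatives were DESeq2 1.42.0, limma-voom 3.58.1, other normalizations and filters, and left-out libraries. Ratios and spreads used exact permutation tests, correlations 100000 permutations (9 or fewer units exactly). Each library was taken as 1 dog, except the sum of French bulldogs 2 and 8 in correlations. The test was checked on simulated counts.

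Named genes were the members, all VEGF and angiopoietin partners, the 2 smallest p values of each other vascular list and the 10 genes closest in pattern, of which 1 is not reported here. The lists were VEGF ligands and coreceptors, angiopoietin-TEK partners, ENG signaling partners, other endothelial, blood-brain barrier, tip cell, pericyte, lymphatic, platelet, macrophage, oligodendrocyte, astrocyte, neuron, fibroblast, red cell and reference genes. RefSeq (UU_Cfam_GSD_1.0) served only for which genes overlap, since its build differs from that of the counts.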

Additional observations from a re-analysis of the deposited data

Results flagged for a closer look

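In groups of 4 or 7 libraries, 40 combinations of gene and group were searched for a library far from the rest, which chance gives in about 1 of 20, and 3 were found. ANGPT2 was 114.9 CPM in boxer 3, against 26.7 to 40.1 CPM in the other 3 boxers. NRP1 was 127 CPM in boxer 3, against 40.9 to 68.8 CPM in the other 6 dogs of the comparison group. VEGFD was 0.2004 CPM in boxer 1 and 0 in the other 3 boxers, which lies under the 3 counts (0.301 CPM in that library) that a count of 0 allows.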

How the results depend on the processing

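Under all 32 alternatives 0 of the 9 endothelial genes passed the test (smallest adjusted p = 0.519, over edgeR, DESeq2 and limma-voom fits), and TEK, TIE1, ENG and ANGPT2 kept a log2 fold change below 0. Over all genes the count of 1 was 2 with upper quartile normalization, 58 with DESeq2 and 2 with limma-voom. It was 0 with at least 10 counts in every library, with French bulldogs 2 and 8 summed (also without French bulldog 6), and against either numbering series of the comparison group alone. Leaving out 1 library gave 0 to 7, the 7 without French bulldog 9. DESeq2 called 23 genes against boxers and 8 against Boston terriers. In edgeR, which called 0 and 1 genes in these contrasts, leaving out 1 library gave 0 to 2 for both. The replicate numbers of the groups did not pair the libraries (correlation of deviations -0.50 to 0.21, above 0.1 in 3 of 7 pairs, 0 of 7 best with its own number), and with the replicate block 0 genes were called. Pairs of members past adjustment were 16 without the 2 farthest libraries and 0 within the comparison group, where VEGFA had an r of -0.67 with TEK and -0.24 with TIE1.

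Signs near 0 turned over. CDH5 was 0.013 with DESeq2's size factors, 0.024 with no filter, 0.012 with DESeq2, 0.078 with French bulldogs 2 and 8 summed and 0.18 also without French bulldog 6. KDR was 0.0062 with no filter, 0.027 summed, 0.044 against boxer 5 and Boston terriers 6 and 7 and 0.15 summed without French bulldog 6. FLT1 was 0.0032 with DESeq2's size factors, 0.014 with no filter, 0.0025 with DESeq2, 0.046 summed, 0.11 against those 3 dogs and 0.066 summed without French bulldog 6. VWF was 0.0061 in that last setting, and with the sum CDH5 was 0.030 against boxers and VWF 0.052 against Boston terriers. The causes were not tested.

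Leaving out 1 library gave ranges that cross 0. Against the comparison group these were PECAM1 -0.42 to 0.054, CDH5 -0.28 to 0.11, KDR -0.26 to 0.14 and FLT1 -0.17 to 0.051. Against boxers they were PECAM1 -0.54 to 0.10, CDH5 -0.33 to 0.17, KDR -0.40 to 0.10 and ANGPT2 -0.62 to 0.30. Against Boston terriers they were PECAM1 -0.26 to 0.34, VWF -0.31 to 0.056, CDH5 -0.21 to 0.27, KDR -0.13 to 0.61, TEK -0.39 to 0.38, TIE1 -0.15 to 0.39 and ENG -0.23 to 0.28. Between boxers and Boston terriers they were PECAM1 -0.10 to 0.61, CDH5 -0.11 to 0.33, TEK -0.051 to 0.72 and ANGPT2 -0.89 to 0.023. For the KDR to FLT1 ratio the range was -0.22 to 0.065. The other ratios kept their sign, with TIE1 to TEK at -0.37 to -0.07, ANGPT2 to TEK at -0.69 to -0.18 and ANGPT2 to ANGPT1 at -1.01 to -0.62. The lowest count of a member was 17, and 14% of simulated 2-fold and 88.6% of simulated 8-fold changes were recovered.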
